A study of Homo sapiens with 4 samples.

Results

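Well-counted late-numbered miRNAs are described here: 104 of the 2366 human miRNAs in the tables, with a number of at least 1000 in their name, short of the latest numbers. They were chosen by that number and by their own read counts, at least 10 reads in both ERH knockdown libraries or in both control libraries, and 18 numbers were left out by the same rule. Of 1098 rows in the range after that step, 994 did not reach the read level and 640 had no read in any library. The same read level was reached by 331 miRNAs numbered below 1000 and by 10 with the latest numbers. The 104 members carry 90 different numbers. In 63 of them all 4 libraries reached 10 reads, 41 qualified through the knockdown libraries alone, and 0 through the controls alone. Of all 464 tested miRNAs, 91 reached the level through knockdown alone. The rule counts raw reads, and the scaled library sizes were 2632107 and 2738936 for knockdown and 1260802 and 2072548 for controls. The choice of the 41 members favours higher values after knockdown without fixing them, so nothing is drawn from their direction. At the edge, 7 members sat at exactly 10 reads in the lower qualifying library, such as miR-4655-5p with 10 and 10 knockdown reads against 4 and 7 control reads. Another 4 miRNAs stopped at 9, such as miR-4742-3p with 9 and 9 knockdown reads against 4 and 3 control reads.

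The libraries come from K562, an established human chronic myeloid leukaemia line, carrying dCas9-KRAB, an inactive Cas9 joined to a repressor domain that silences the gene a guide RNA points it to. Every library, controls included, carried dCas9-KRAB and 1 of 2 guide RNAs against ERH in a polyclonal line. Knockdown was induced with 0.05 µg/ml doxycycline for 5 days, and the control of each guide RNA was the same line without doxycycline. Each group thus holds 2 libraries, 1 per guide RNA, and an effect of doxycycline itself cannot be told apart from that of knockdown. There was 1 culture per guide RNA and condition, so a p-value reflects how far apart the 4 libraries lie, which may be technical. Fewer cells with a miRNA and less of it per cell cannot be told apart.

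miRBase numbers miRNAs in the order in which they were reported, so high numbers mark miRNAs found late, mostly by deep sequencing, and many are scarce. A canonical miRNA is cut from its primary transcript by the Microprocessor (Drosha with DGCR8), trimmed by Dicer and loaded into an Argonaute protein, where bases 2 to 8, the seed, pair with target mRNAs. ERH, a short protein kept across eukaryotes, joins the Microprocessor and is known for helping it cut poor hairpins that lie beside better ones. Some late-numbered miRNAs take other routes, such as mirtrons, whose ends are made by splicing.

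The mature sequences below are those of the late-numbered miRNAs whose change or abundance the results turn on, from RefSeq (GRCh38.p14), 5′ to 3′, with the seed in capitals. The first 4 rose, the next 6 fell, and the last is the most abundant member. No 2 of them share a seed.
miR-3187-3p: uUGGCCAUggggcugcgcgg
miR-3157-5p: uUCAGCCAggcuagugcagucu
miR-3176: aCUGGCCUgggacuaccgg
miR-3611: uUGUGAAGaaagaaauucuua
miR-1275: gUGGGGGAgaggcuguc
miR-1908-5p: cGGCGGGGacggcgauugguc
miR-1908-3p: cCGGCCGCcggcuccgccccg
miR-3940-3p: cAGCCCGGaucccagcccacuu
miR-1307-5p: uCGACCGGaccucgaccggcu
miR-1307-3p: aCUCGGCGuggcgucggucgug
miR-4521: gCUAAGGAaguccugugcucag

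Hairpins are shown for the 2 loci behind the largest well-counted rises and the 2 behind the largest falls, picked after their values were seen, with the annotated mature arms in capitals. Here and below, exon means overlap with any exon of any transcript of the host gene, also where another transcript has an intron. MIR3187 lies outside annotated genes at chr19:813584-813653 on the plus strand, MIR3157 in an intron of ENTPD1-AS1 at chr10:96064315-96064399 on the minus strand, MIR1908 in an exon of FADS1 at chr11:61815161-61815240 on the minus strand and MIR1275 outside genes at chr6:33999972-34000051 on the minus strand.
MIR3187: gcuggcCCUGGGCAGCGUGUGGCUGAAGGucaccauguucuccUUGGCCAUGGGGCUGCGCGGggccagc
MIR3157: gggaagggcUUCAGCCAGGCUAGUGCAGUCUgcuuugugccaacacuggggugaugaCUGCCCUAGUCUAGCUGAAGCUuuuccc
MIR1908: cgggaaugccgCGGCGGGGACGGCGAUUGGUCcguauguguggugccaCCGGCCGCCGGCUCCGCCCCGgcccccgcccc
MIR1275: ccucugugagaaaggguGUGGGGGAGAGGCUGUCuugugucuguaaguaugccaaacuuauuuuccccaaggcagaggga

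The 4 libraries held 1430434 to 2476700 human miRNA reads, the fewest in the control of guide RNA 1. The erythroid miR-451a and the myeloid miR-142-3p and miR-223-3p, which fit the labelled line, were abundant in every library, while the muscle miR-206 had 0 reads (which allows up to 3 reads, 1.21 to 2.10 CPM by library size), the muscle miR-1-3p had 8 and 6 after knockdown against 1 and 1, and the liver miR-122-5p, the lymphoid miR-155-5p and the neuronal miR-124-3p had at most 5. The neuronal miR-9-5p, the epithelial miR-200c-3p and miR-141-3p and the smooth muscle miR-145-5p were present in every library. Other markers of these types were scarce. The epithelial miR-200a-3p had 10 and 4 reads after knockdown against 2 and 6 in controls, and miR-200b-3p 5 and 7 against 5 and 2. Reads of the smooth muscle miR-143-3p were 7 and 16 against 5 and 9. The erythroid markers did not move together: miR-144-3p was at 15828 and 14824 CPM after knockdown and 9143 and 9243 in controls, and miR-451a at 20370 and 21087 against 28639 and 29336. The myeloid markers were all lower after knockdown: miR-142-3p was at 47933 and 48318 CPM against 67098 and 73030, miR-142-5p at 14586 and 15510 against 22791 and 21499, and miR-223-3p at 23649 and 25709 against 35017 and 36836. The part of these markers in the results was not tested. ERH mRNA was not measured. A direction between libraries depends on how they are scaled. Levels are given as CPM, the reads of a miRNA relative to the size of its library, after TMM scaling, under which the 464 tested miRNAs had a median log2 fold change of 0.06. With library size alone that median lay 0.44 higher, and with the added spike-in RNAs 0.68 higher, so "rose" and "fell" are relative to the bulk of miRNAs.

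Late-numbered miRNAs took a larger share of the reads after ERH knockdown, but so did the typical tested miRNA. With library size alone, the scale of these shares, the median log2 fold change over all 464 tested miRNAs was 0.50. The 104 members made up 1.02% of human miRNA reads in the knockdown library of guide RNA 1 and 0.983% in that of guide RNA 2, against 0.688% and 0.667% in the controls. Exact binomial 95% intervals for counting error alone were 1.01% to 1.04%, 0.970% to 0.995%, 0.674% to 0.701% and 0.657% to 0.677%. The groups did not overlap, and the mean share was 1.003% ± 0.028 after knockdown against 0.677% ± 0.015 in controls (SD, n = 2 each), 1.48-fold higher. Within guide RNA 1 the ratio was 1.49 and within guide RNA 2 it was 1.47. The 63 members with at least 10 reads in every library gave 0.989% and 0.951% against 0.673% and 0.652%, 1.46-fold. Without miR-4521, the most abundant member, the ratio was 1.44. With 2 libraries per group the smallest two-sided p of an exact permutation test is 0.333. The ratio depended on the scale: on the TMM scale the summed level of the members was 8653 and 8589 CPM after knockdown and 7801 and 7971 CPM in controls, 1.09-fold, and per 1000 spike-in reads it was 385 and 491 against 213 and 284, 1.76-fold.

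Of the 104 members, 101 passed the filter on low counts and were tested. Among these 35 rose and 8 fell (edgeR quasi-likelihood test, Benjamini-Hochberg adjusted p under 0.05 over all tested miRNAs), and 58 did not pass. Over all 464 tested miRNAs 50.9% were called, 25.6% higher and 25.2% lower. The members' share of higher calls, 34.7%, and of lower calls, 7.92%, include the 38 tested members that qualified through knockdown alone (10 higher, 0 lower). Among the 63 with 10 reads in every library, 25 rose and 8 fell and the median log2 fold change was 0.28. Of 287 tested miRNAs numbered below 1000 with the same read level, 56 rose and 104 fell, with a median of -0.11. Whether the 2 sets differ was not tested. Of the 35 rises, 15 kept their call without knockdown replicate 1, 11 without knockdown replicate 2, 23 without control replicate 1 and 14 without control replicate 2, and of the 8 falls 4, 4, 6 and 5 did (a replicate number is a guide RNA). DESeq2 called 10 of the rises and 6 of the falls. Low-count rises without a DESeq2 result, such as miR-3144-3p, miR-1914-5p, miR-3157-3p, miR-3188 and miR-4440, are counted here as not called. With library size alone the members split 72 up and 3 down, and with spike-ins 62 up and 0 down (edgeR; also 0 down at an unadjusted p under 0.05).

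**Figure D1:**
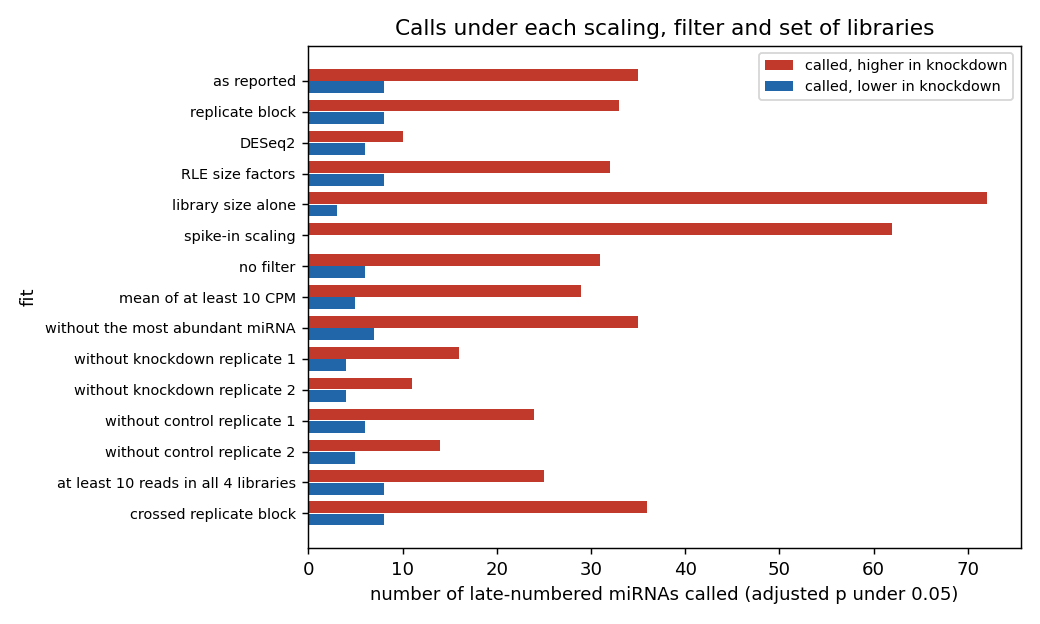
Number of late-numbered miRNAs called higher (red) or lower (blue) after ERH knockdown, on a linear axis, under the reported fit and each alternative. The bars run from 10 to 72 for rises and from 0 to 8 for falls, with the largest counts of rises under library size and spike-in scaling.

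The calls differed by abundance. At a mean of 10 to 100 CPM over the 4 libraries, 22 of 47 members rose and 4 fell, against a background of 34.8% higher and 19.7% lower for all tested miRNAs of that level. Of these 47, 2 had qualified through knockdown alone, and of the 45 with 10 reads in every library 20 rose and 4 fell. Of 124 tested miRNAs numbered below 1000 there, 38 rose and 31 fell, and 7 of the 124 reached the read level through knockdown alone. Of the 43 tested members under 10 CPM, 8 rose and 0 fell (background 20.9% and 5.45%), but 39 of the 46 members at this level had qualified through knockdown alone. In the 7 that had 10 reads in every library, 0 passed in either direction and the median was 0.05. At 100 to 1000 CPM 4 of 9 members rose and 3 fell (background 28.0% and 32.0%), a share near the background for falls. At 1000 CPM or more there were 2 members, of which miR-4521 rose and miR-1307-5p fell (background 7.89% and 57.9%).

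**Figure D2:**
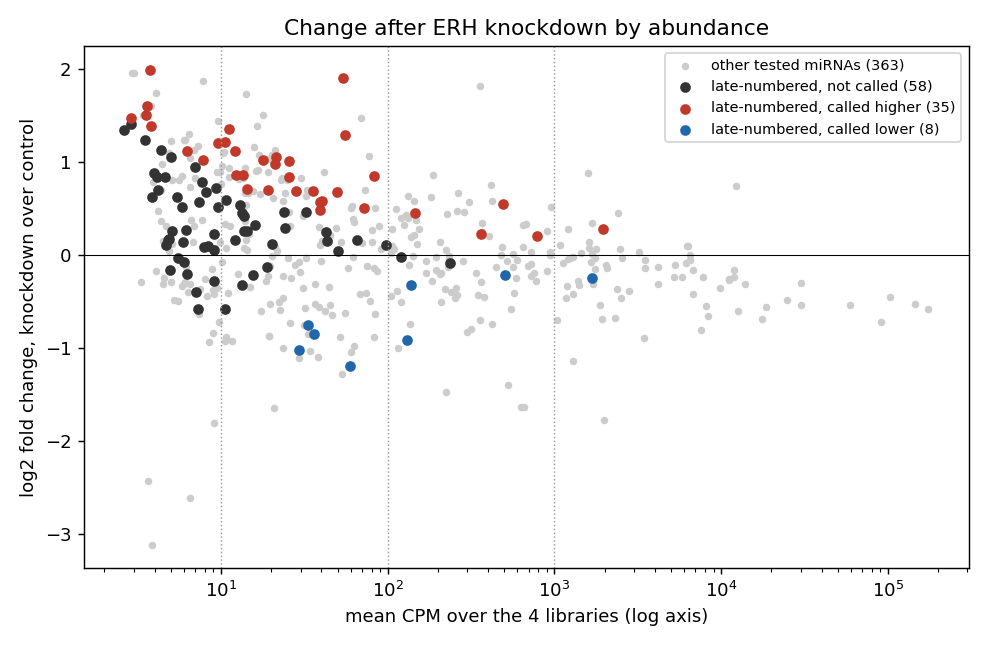
Log2 fold change of knockdown over control against mean CPM (log axis) for the 464 tested miRNAs, with the 101 tested late-numbered miRNAs in colour. Dotted lines stand at 10, 100 and 1000 CPM; the coloured points above 0 are densest between the first 2 lines, and 1 of the 2 members beyond 1000 CPM lies on each side of 0.

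Abundance was uneven within the set. miR-4521 alone took 24.4% and 25.2% of the members' reads after knockdown and 24.3% and 20.5% in controls, and the 5 most abundant members took 64.5% to 67.7%. miR-4521, whose hairpin lies outside annotated genes on chromosome 17 (8186945-8187004, plus strand), stood at 2114 and 2163 CPM after knockdown and at 1897 and 1636 in controls. It was higher in both knockdown libraries than in either control and rose by 0.28 ± 0.07 (log2 fold change with the SE of the fit, adjusted p = 0.0032, edgeR). Without knockdown replicate 1 its value was 0.29 and without knockdown replicate 2 it was 0.26, and neither was called. miR-1296-5p, at 824 and 864 CPM against 707 and 754, rose by 0.20 ± 0.07 (edgeR adjusted p = 0.020). miR-1277-3p, at 405 and 381 CPM against 332 and 342, rose by 0.22 ± 0.08 (edgeR adjusted p = 0.030). These 2 rises were small and their groups lay close together: neither was called by DESeq2 (0.15 and 0.17), with RLE factors (0.15 and 0.17), without a filter (0.22 and 0.24) or without either knockdown replicate or control replicate 1 (0.17 to 0.24 and 0.17 to 0.27), and miR-1277-3p also not with guide RNA as a block (0.22) or without control replicate 2 (0.26).

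Among the other members of the 12 most abundant, miR-3180-5p, made from 3 loci in the duplicated region of chromosome 16, was at 220 and 237 CPM after knockdown and 261 and 227 in controls, with overlapping groups and a log2 fold change of -0.08 ± 0.10. miR-1180-3p, from an intron of B9D1, was at 130 and 110 against 119 and 123 CPM, or -0.02 ± 0.12. miR-3194-5p, from an intron of NFATC2, was at 104 and 98.9 against 88.0 and 98.9 CPM, or 0.10 ± 0.12. None of the 3 passed with TMM scaling, and all 3 are positive and called with library size (0.35, 0.42 and 0.55).

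In all, 6 late-numbered rises were called under every scaling, filter, tool and set of libraries tried, which makes 13 fits. They are miR-3187-3p, miR-3157-5p, miR-3613-5p, miR-3611, miR-1303 and miR-3176, of which miR-1303 and miR-3176 are singled out after their values were seen. No fall was called in every fit, since spike-in scaling called 0. The share of all tested miRNAs called in every fit was not computed, so no pattern is read from these 6. Knockdown libraries held 217 and 241 reads of miR-3187-3p and control libraries 24 and 52, or 82.4 and 88.0 CPM against 19.0 and 25.1. Both knockdown libraries lay over 3-fold above either control, with a ratio of 4.33 within guide RNA 1 (exact binomial 95% interval for counting error 2.83 to 6.91) and of 3.51 within guide RNA 2 (2.59 to 4.83). It rose by 1.90 ± 0.17 (edgeR adjusted p = 2.35e-07), and the hairpin has MIR4745 as a neighbour within 10 kb on its strand.

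miR-3157-5p had 201 and 216 knockdown reads against 48 and 57 control reads, or 76.4 and 78.9 CPM against 38.1 and 27.5. The groups were far apart and it rose by 1.29 ± 0.17 (edgeR adjusted p = 1.08e-05). miR-3613-5p stood at 609 and 558 CPM against 412 and 390 and rose by 0.54 ± 0.08 (edgeR adjusted p = 2.91e-05). It was the most abundant of the 6. miR-3611, in an intron of CUL2 (the scaffold of a ubiquitin ligase; chromosome 10, 35079598-35079680, minus strand), stood at 166 and 169 CPM against 131 and 116 and rose by 0.45 ± 0.11. miR-1303 stood at 116 and 96.0 CPM against 67.4 and 53.1 and rose by 0.84 ± 0.15. miR-3176, in an intron of CAPN15, stood at 33.8 and 35.1 CPM against 15.9 and 17.9 and rose by 1.01 ± 0.20. In each of these the lower knockdown library was above the higher control.

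**Figure D3:**
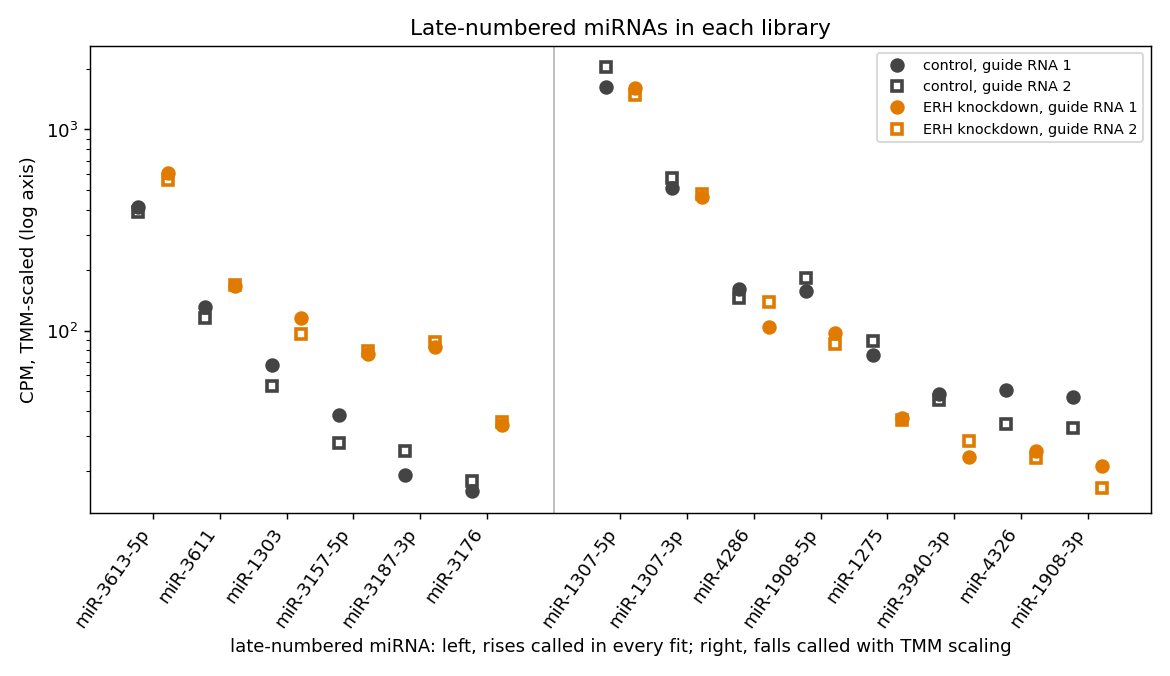
TMM-scaled CPM (log axis) in each of the 4 libraries for the 6 rises called in every fit (left) and the 8 falls called with TMM scaling (right), with filled circles for guide RNA 1 and open squares for guide RNA 2. The knockdown points (orange) lie above both control points (dark) in all 6 on the left, and miR-3187-3p has the widest gap.

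The other members with large rises rest on few reads. miR-3144-3p had 13 and 20 knockdown reads against 1 and 4 control reads and rose by 1.99 ± 0.56; its ratio within guide RNA 1 was 6.23, with a counting interval of 0.935 to 265. miR-1914-5p, in an exon of UCKL1 with MIR647 beside it, had 16 and 14 reads against 1 and 5 and rose by 1.60 ± 0.53. miR-3157-3p, the other arm of MIR3157, had 15 and 13 reads against 3 and 3 and rose by 1.50 ± 0.52. miR-3188 had 12 and 11 reads against 2 and 3 and rose by 1.48 ± 0.55. miR-4440, from an intron of HDAC4, a histone deacetylase gene, had 17 and 13 reads against 2 and 5 and rose by 1.39 ± 0.50. These 5 qualified through knockdown alone, which favours a rise. Their values without single libraries, where the call was lost, ran from 1.66 to 1.68 for miR-3144-3p, 1.21 to 1.72 for miR-1914-5p, 1.13 to 1.63 for miR-3157-3p, 1.39 to 1.56 for miR-3188 and 1.15 to 1.79 for miR-4440. miR-3188 also lost its call with guide RNA as a block (1.46) and, like miR-4440, without a filter (1.49 and 1.40). No DESeq2 result was available for these 5.

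miR-1255b-5p had 45 and 38 knockdown reads against 13 and 7 control reads and rose by 1.35 ± 0.39. miR-3115 had 45 and 34 reads against 8 and 13 and rose by 1.22 ± 0.33. miR-3688-3p had 29 and 42 reads against 9 and 10 and rose by 1.20 ± 0.36. These 3 qualified through knockdown alone as well. For miR-1255b-5p the 2 control libraries differed most, at 10.3 and 3.38 CPM, and without control replicate 2 its value was 0.59, not called; without either knockdown replicate it was 1.20 and 1.50, not called. miR-3115 was not called without knockdown replicate 1 (0.97) or control replicate 2 (1.22), nor miR-3688-3p without knockdown replicate 2 (0.94) or control replicate 2 (0.90), and DESeq2 called none of the 3 (1.22, 1.18 and 1.12).

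Falls among late-numbered miRNAs numbered 8, and 5 of the 6 with a matched hairpin came from exons, among them both arms of MIR1908 and of MIR1307. miR-1275 had 97 and 98 knockdown reads against 95 and 183 control reads, or 36.9 and 35.8 CPM against 75.3 and 88.3. The knockdown libraries were near each other and less than 50 CPM, and it fell by 1.19 ± 0.15 (edgeR adjusted p = 7.43e-06). miR-1908-5p had 96.9 and 85.8 CPM after knockdown and 158 and 183 in controls and fell by 0.91 ± 0.12 (edgeR adjusted p = 1.01e-05). Its other arm miR-1908-3p had 21.3 and 16.4 CPM against 46.8 and 32.8 and fell by 1.02 ± 0.22 (edgeR adjusted p = 0.0015). MIR1908 lies in FADS1, the gene of a fatty acid desaturase, and both of its arms moved the same way. With spike-in scaling these 3 falls were -0.51, -0.24 and -0.37 and not called, and without knockdown replicate 2 miR-1908-3p was at -0.85, not called.

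miR-3940-3p, from an exon of KHSRP (an RNA-binding protein that itself takes part in the processing of some miRNAs; chromosome 19, 6416410-6416511, minus strand), had 23.6 and 28.1 CPM after knockdown and 48.4 and 45.4 in controls and fell by 0.85 ± 0.18 (edgeR adjusted p = 0.0011). miR-4326 had 25.1 and 23.4 CPM against 50.8 and 34.3 and fell by 0.75 ± 0.21 (edgeR adjusted p = 0.0074). Both lost their call with library size (-0.40 and -0.31) and with spike-ins (-0.16 and -0.09), and miR-4326 also without knockdown replicate 1 (-0.81), knockdown replicate 2 (-0.70) or control replicate 1 (-0.49). miR-4286 had 104 and 138 CPM against 162 and 145 and fell by 0.32 ± 0.13 at an adjusted p of 0.0498 (edgeR). That call ended with DESeq2 (-0.38), without a filter (-0.31), with a mean of at least 10 CPM (-0.28), without the most abundant miRNA of the cells (-0.33) and without knockdown replicate 1, control replicate 1 or control replicate 2 (-0.14, -0.24 and -0.40), and the value was 0.11 with library size and 0.39 with spike-ins.

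The falls of the MIR1307 arms were small. MIR1307 is in an exon of ATP5MD, a subunit gene of ATP synthase, at chromosome 10, 103394253-103394401, minus strand. miR-1307-5p stood at 1617 and 1479 CPM after knockdown and 1628 and 2042 in controls and fell by 0.25 ± 0.08 (edgeR adjusted p = 0.023). Within guide RNA 1 its ratio was 0.994 (counting interval 0.942 to 1.05) and within guide RNA 2 it was 0.725 (0.694 to 0.757). miR-1307-3p stood at 462 and 476 CPM against 510 and 576 and fell by 0.22 ± 0.08 (edgeR adjusted p = 0.029), with a ratio of 0.905 (0.822 to 0.997) within guide RNA 1 and of 0.828 (0.765 to 0.896) within guide RNA 2. With library size the arms stood at 0.19 and 0.22 and were called in that direction, and with spike-ins at 0.42 and 0.47, not called. The call of miR-1307-5p also ended with DESeq2 (-0.30) and that of miR-1307-3p without a filter (-0.20). Neither was called with a mean of at least 10 CPM (-0.21 and -0.17), without either knockdown replicate (-0.31 and -0.19; -0.19 and -0.24) or without control replicate 2 (-0.06 and -0.11).

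Each guide RNA has its own knockdown and its own control library, so the 2 within-guide ratios share no library. Of the 104 members, 70 were higher within both guide RNAs, 14 were lower within both and 20 differed in sign; of the 464 tested miRNAs 204, 177 and 83 did so. Among the 63 with 10 reads in every library these counts were 40, 13 and 10. A rise of at least 1 on the log2 scale within both guide RNAs was seen for 4 members, miR-3187-3p, miR-3144-3p, miR-3157-3p and miR-3188, of which the last 3 qualified through knockdown alone, and a fall as large for 1, miR-1275; over all tested miRNAs the shares were 3.66% and 2.80%. Across the 101 tested members the within-guide ratios correlated with Pearson's r = 0.56 and Spearman's rho = 0.53, and across the 63 with 10 reads in every library 0.71 and 0.66, against 0.73 and 0.74 over all tested miRNAs. These are descriptions across miRNAs, whose ratios within a guide RNA share both libraries. Among the members that differed in sign, chosen after their values were seen, miR-4661-5p had 14 and 31 reads after knockdown against 13 and 13 in controls, and miR-3681-5p had 24 and 22 against 5 and 22.

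**Figure D4:**
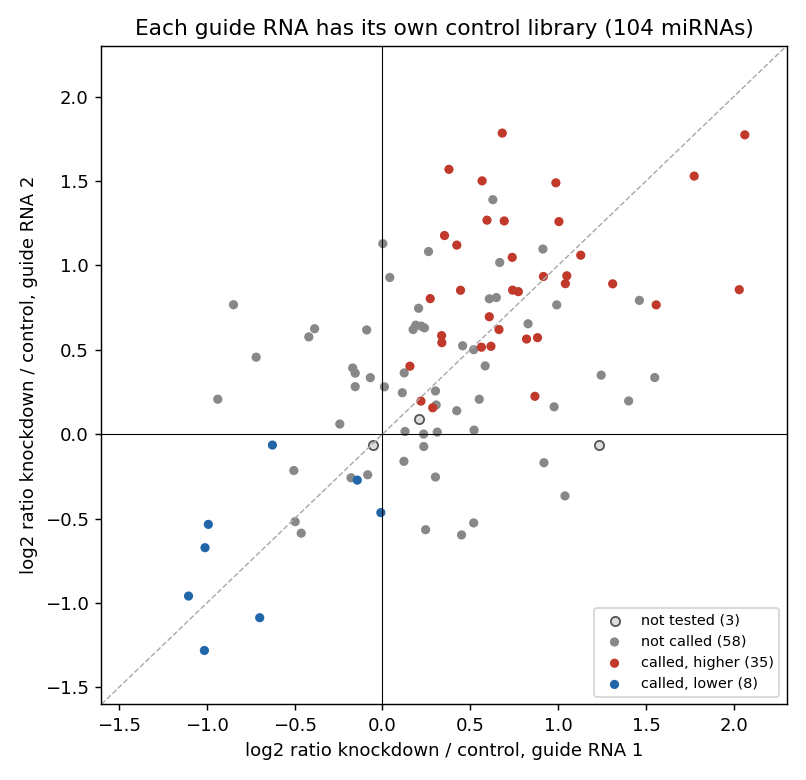
Log2 ratio of knockdown to control within guide RNA 1 (x axis) and guide RNA 2 (y axis) for the 104 late-numbered miRNAs, coloured by the call. The 35 rises lie where both ratios are above 0, the 8 falls where both are below 0, and the dashed line marks equal ratios.

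Both arms of 13 hairpins were members, and the balance between arms needs no scaling. The share of the 5p arm among the reads of both arms overlapped between knockdown and control in 10 of the 13. For MIR1307 it was 77.8% and 75.6% after knockdown and 76.1% and 78.0% in controls, for MIR3613 it was 93.4% and 92.2% against 92.3% and 92.6%, and for MIR3157 it was 93.1% and 94.3% against 94.1% and 95%. Both arms of each of these 3 hairpins were called, in the same direction; miR-3613-3p, at 43.3 and 47.5 CPM against 34.1 and 31.4, rose by 0.48 ± 0.17, a call lost under DESeq2 (0.43), without each knockdown library in turn (0.55 and 0.42) and without control replicate 2 (0.43). For MIR1908 the 5p share was 82.0% and 83.9% against 77.1% and 84.8%.

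In 3 of the 13 hairpins the 5p share was lower in both knockdown libraries than in either control. With 2 libraries per group, an exact permutation test gives a separation in either direction a p of 0.333. The share of separated hairpins over all miRNAs was not computed, so no pattern is read from these 3. For MIR3194 it was 74.8% and 70.9% after knockdown and 79.3% and 76.5% in controls, with miR-3194-3p at 0.46 ± 0.19 (edgeR adjusted p = 0.060). For MIR4772, in an intron of IL18RAP, it was 50.8% and 48.2% against 56.3% and 54.4%; miR-4772-3p rose by 0.57 ± 0.17 (edgeR adjusted p = 0.011) while miR-4772-5p was at 0.24 ± 0.16. For MIR1180 it was 4.48% and 4.76% against 6.83% and 6.62%, and miR-1180-5p was at -0.59 ± 0.34. The counting intervals of knockdown and control overlapped within each guide RNA, for example 44.4% to 57.2% for MIR4772 in the knockdown library of guide RNA 1 and 45.3% to 66.9% in its control. Overlap of intervals is not a test of a difference, and a shift of arms was not tested. The call of miR-4772-3p ended with DESeq2 (0.52) and without either knockdown replicate (0.58 and 0.56). Among the remaining hairpins with both arms, miR-3667-3p rose by 0.50 ± 0.15, at 91.9 and 78.5 CPM against 49.97 and 67.1. That call ended under DESeq2 (0.47), without each knockdown library in turn (0.38 and 0.61) and without control replicate 1 (0.36). The other arm, miR-3667-5p, stood at 0.16 ± 0.31. For MIR4677, in an intron of SDCCAG8, the arms were at 0.26 ± 0.27 (5p) and 0.12 ± 0.23 (3p).

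Of the 104 members 81 matched a RefSeq hairpin, 73 with a single locus. Among those tested, 49 came from introns on their own strand in GENCODE 29, of which 16 rose and 0 fell, with a median log2 fold change of 0.57 and a range of -0.59 to 1.50. A hairpin counted as exonic if it overlapped any exon of any host transcript, also where another transcript has an intron. Of 14 members from exons, 2 rose and 5 fell, with a median of -0.17. The 2 rises were miR-2110, in CCDC186, and miR-1914-5p, and the 5 falls were both MIR1908 arms, both MIR1307 arms and miR-3940-3p. Of 11 outside genes, 4 rose and 1, miR-1275, fell; over all tested miRNAs outside genes 23 of 65 rose and 14 fell, a like share of rises. Of the members from introns 23 had qualified through knockdown alone, and of those from exons 3. Among members with 10 reads in every library, 13 of 27 from introns rose and 0 fell (median 0.51), and 1 of 11 from exons rose and 5 fell (median -0.25). Over all tested miRNAs with a match, 48 of 217 from introns rose and 47 fell, and 10 of 76 from exons rose and 37 fell, with medians of 0.08 and -0.31. Abundance went with place too: the median of the mean CPM was 9.66 for members from introns and 24.2 for those from exons, and its part in the difference was not tested. At 10 to 100 CPM, 12 of 22 members from introns rose and 0 fell, and of 7 from exons 1 rose and 2 fell; over all tested miRNAs of that level 27 of 83 from introns rose and 15 fell, and 3 of 23 from exons rose and 9 fell.

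**Figure D5:**
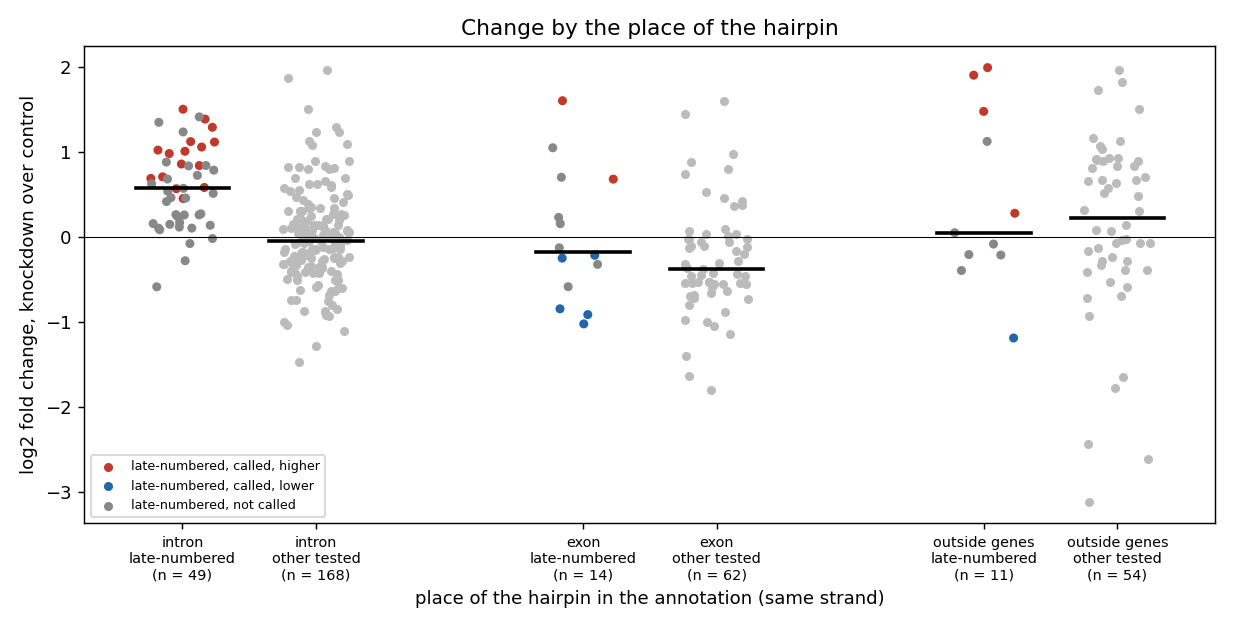
Log2 fold change of knockdown over control for tested miRNAs whose hairpins lie in introns, in exons (overlap with any exon of any host transcript) or outside genes. Late-numbered miRNAs are coloured by call and other tested miRNAs are in light grey, and thick lines are medians. The late-numbered intronic group has its median at 0.57 and no blue point, while the exonic group has its median at -0.17; 23 members from introns and 3 from exons were chosen through knockdown reads alone.

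Hairpins beside another hairpin, the setting in which ERH is known to act, were rare in this set. Within 10 kb on the same strand, 8 members had a neighbour; 3 rose (miR-3187-3p, miR-3176 and miR-1914-5p) and 0 fell, with a median of 0.79. Of the 71 tested members without a neighbour 20 rose and 6 fell, with a median of 0.45. Over all tested miRNAs with a match, 27 of 147 with a neighbour rose and 59 fell, against 56 and 40 of 221 without. Of the 8, 5 qualified through knockdown alone, and the difference between members with and without a neighbour was not tested.

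Base composition also differed between rises and falls, though the few matched falls include both arms of MIR1908 and both arms of MIR1307. The 81 matched sequences had 17 to 25 bases and a median GC content of 59.1%, against 50% for all 368 tested miRNAs with a match, and 37 of the 81 began with U. The 6 matched falls ran from 68.2% to 95.2% GC with a median of 72.1%, as the lines above show for miR-1908-3p and miR-1275. The 23 matched rises had a median of 54.5%. Of 35 tested members at 60% GC or more, 8 rose and 6 fell. Below that, 5 of 10 members under 40% GC rose, 3 of 15 at 40 to 50% and 7 of 19 at 50 to 60%, and 0 fell. Of the members in these classes, in that order, 3 of 10, 8 of 15 and 5 of 19 had qualified through knockdown alone. At 60% or more 18 of 37 members had, tested or not. That choice favours rises over falls, so these counts are not free of it. Over all tested miRNAs, 19 of 80 rose and 22 fell under 40%, 18 of 103 rose and 29 fell at 40 to 50%, and 24 of 102 rose and 33 fell at 50 to 60%. At 60% or more, 22 of 83 rose and 15 fell, a share of falls near that of the members. Pearson's r of GC content with log2 fold change was -0.20 over the 79 matched and tested members. It was -0.36 over the 47 of these with 10 reads in every library and -0.0030 over all 368. Whether base composition has a part in these calls was not tested.

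Some members have an unusual origin. Reads of miR-3130-5p, miR-3158-3p, miR-3158-5p and miR-3688-3p cannot be assigned to a strand, since each is annotated in 2 hairpins that overlap on opposite strands. Of these miR-3688-3p rose, as given above, and the others were at 0.29 ± 0.22, 0.46 ± 0.28 and -0.17 ± 0.52. miR-3065-5p, whose hairpin lies opposite MIR338, was at 0.05 ± 0.32, with 25 and 25 reads against 10 and 20. In 2 members both hairpin ends lie within 5 bases of the splice sites of 1 intron, as in mirtrons. miR-1227-3p (PLEKHJ1) had 27 and 21 reads against 6 and 14, at 0.57 ± 0.37, and miR-1229-3p (MGAT4B) had 11 and 11 against 3 and 2, at 1.41 ± 0.58 (edgeR adjusted p = 0.052). Both qualified through knockdown alone, neither was called, and both passed with library size (1.01 and 1.85) and with spike-ins (1.23 and 2.05).

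Of 13 miRNA numbers listed as fragments of other RNAs, 10 had rows and 1 was a member. miR-4485-3p, which matches mitochondrial ribosomal RNA and is annotated in the nuclear copy MTRNR2L8 on chromosome 11, had 15 and 14 knockdown reads against 2 and 9 control reads, at 0.70 ± 0.47. No hairpin of the 81 matched members overlapped another annotated small RNA gene on its strand. Nuclear tRNA genes were not among those searched, and the 23 members without a match could not be checked. Seeds were rarely shared: 3 of the 79 matched and tested members had the seed of another tested miRNA. The matched but untested miR-6511b-3p has the seed of miR-6511a-3p, CUCACCA. miR-4466 shares GGUGCGG with miR-675-5p and was at -0.21 ± 0.27, and miR-3681-3p shares CACAGUG with miR-128-3p and was at 0.16 ± 0.42. miR-3173-5p, from an intron of DICER1, the gene of the enzyme that trims most miRNAs, had 41 and 41 knockdown reads against 14 and 21 control reads and stood at 0.54 ± 0.27 (edgeR adjusted p = 0.116). It was picked for its host gene after its values were seen.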

How the data were processed

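Small RNA of about miRNA size was gel-purified and sequenced from 4 libraries. The authors deposited raw read counts per mature miRNA for each library, with 2 spike-in RNAs of other species; the aligner, counter and genome build: not given in the sources used here. The members and lists were chosen with earlier results of these data known. Counts were tested with edgeR 4.0.16 (R 4.3.3, limma 3.58.1): filterByExpr with a minimum count of 10 and a total of 15, TMM scaling, the quasi-likelihood test and Benjamini-Hochberg adjustment at 0.05 over 464 miRNAs. The SE is the log2 fold change over the square root of F, and within-guide log2 ratios use a prior count of 2. Within-guide intervals are exact binomial at 95% and, like the floor of 3 counts, cover counting error only. Named members were the 12 of highest mean CPM, up to 10 rises and 10 falls of largest size with 1 sign in each guide RNA, up to 10 hairpins with both arms, those at splice sites or opposite another hairpin and those sharing a seed with a miRNA numbered below 1000, plus members said to be chosen after their values were seen. Replicate numbers pair libraries by design, as 1 polyclonal line per guide RNA; the deviations of libraries with one number from their group means had a correlation of -0.11. Places came from RefSeq (GRCh38.p14) and GENCODE 29, with neighbours within 10 kb. Of the 104 members, 23 had no match and are named only. Alternatives were DESeq2 1.42.0, other scalings and filters, a replicate block and leaving out each library. The fits were tested on simulated data.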

Additional observations from a re-analysis of the deposited data

How the results depend on the processing

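Guide RNA as a replicate block left 33 late-numbered miRNAs higher and 8 lower, a crossed pairing, chosen after seeing the data, 36 and 8, and RLE size factors 32 and 8. DESeq2 called 16 late-numbered miRNAs (10 higher) and 146 of all tested (47 higher). Library size alone called 75 (72 higher, 3 lower), and 273 higher and 41 lower of all tested. Spike-in scaling called 62 higher and 0 lower (edgeR), and 186 and 8 of all tested. A mean of at least 10 CPM left 5 falls. Leaving out 1 library gave 15 to 30 late-numbered calls (11 to 24 higher, 4 to 6 lower), and 132 to 189 over all tested (51 to 88 higher, 75 to 101 lower). Requiring 10 reads in all 4 libraries left 63 members, of which 53 had the same sign within both guide RNAs (40 higher), and at least 20 reads in both libraries of either group left 68. Lower within both guide RNAs were 7 with library size and 4 with spike-ins. The cause of these shifts was not tested.

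Signs turned with library size and spike-in scaling, in that order, for miR-1180-3p (0.42 and 0.65), miR-1307-3p (0.22 and 0.47), miR-1307-5p (0.19 and 0.42), miR-3158-5p (0.27 and 0.46), miR-3180-5p (0.35 and 0.61), miR-4286 (0.11 and 0.39) and miR-4466 (0.23 and 0.45). With spike-ins miR-1180-5p was at 0.0685, with RLE miR-3065-5p was at -0.0017, and with at least 10 CPM miR-1180-3p was at 0.024. Without single libraries the sign also turned for 8 miRNAs that were not called: miR-1180-3p (-0.14 to 0.10), miR-3065-5p (-0.0377 to 0.24), miR-3158-5p (-1.004 to 0.83), miR-3180-5p (-0.18 to 0.023), miR-3667-5p (-0.26 to 0.53), miR-3681-3p (-0.11 to 0.37), miR-4466 (-0.46 to 0.0564) and miR-4677-3p (-0.0063 to 0.37). With 1 library left in a group, that library is assumed to vary like the other group. Under about 10 CPM, depth limits what can be seen: the floor of 3 reads is 1.21 to 2.10 CPM.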
